A study of Arabidopsis thaliana with 6 samples.

Results

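Transcripts of 10 effector genes of the drought, abscisic acid (ABA) and cold responses were followed in Arabidopsis thaliana seedlings of ecotype Col-0. They are read by 9 of the 22746 probe sets tested on Affymetrix arrays. COR15A, COR15B, COR47 and LTI30 were each found by symbol, with 1 single-gene probe set apiece. The platform annotation used here lists no gene for the probe sets of RD29A, RD29B, RAB18 and RD20, which were assigned to loci AT5G52310, AT5G52300, AT5G66400 and AT2G33380 by the identifiers of the ATH1 array. KIN1 and KIN2 share 1 probe set, so their transcripts cannot be told apart. The genes were picked by name, with earlier results of these data known.

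Wild-type seedlings (WT) were compared with seedlings that overexpress TOC1 (TOC1-ox), with 3 arrays per group that the series calls biological replicates. Both groups were 12 days old, grew on MS3 medium with 12 h of light and 12 h of darkness a day, and were harvested at zeitgeber time 15, in the dark. The sources used here do not state the promoter that drives TOC1 or the number of transgenic lines, and the level of TOC1 itself was not analysed here under its name. TOC1 is an evening component of the circadian clock that has been connected to ABA and drought signalling, and the comparison asks how transcripts differ when it is overexpressed.

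Plant cells that lose water or are chilled make hydrophilic proteins that protect membranes and other proteins. In the cold, the CBF transcription factors switch on such genes through the DRE element of their promoters. ABA, the hormone of drought, acts through its receptors, the type 2C phosphatases and the SnRK2 kinases on the ABF factors, which bind the ABRE element. COR15A, COR47, LTI30 and the KIN genes are classical cold-responsive genes, RD29A carries both kinds of element, and RD29B and RAB18 are mainly used as ABA markers.

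Values are on the log2 scale of GCRMA, on which the table runs from 1.42 to 15.46 and dim probe sets are drawn together under about 4. Probe sets were tested for genotype by limma's moderated test, two-sided and with Benjamini-Hochberg adjustment. The adjustment ran over all 22746 probe sets, or over those that a filter kept. A probe set was called where the adjusted p was under 0.05. Ratios of neighbouring genes were compared by an exact permutation test instead. A difference is given with limma's standard error, and a group mean with the SD over its 3 arrays. Levels of different probe sets are not comparable, so only changes are set side by side. In whole seedlings, fewer cells of a type and less RNA per cell cannot be told apart.

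The arrays numbered 3 stood apart. TOC1-ox replicate 3 differed more than 2-fold from replicates 1 and 2 at 2480 and 2298 probe sets, whereas replicates 1 and 2 differed so at 177. By these counts it was nearer to the WT arrays. From WT replicates 1 to 3 it differed more than 2-fold at 2101, 1800 and 1461 probe sets. WT replicate 3 differed so from WT replicates 1 and 2 at 1053 and 719, and these from each other at 436. Across probe sets, TOC1-ox replicate 3 correlated with WT replicates 1 to 3 at 0.9758, 0.9780 and 0.9809. It correlated with TOC1-ox replicates 1 and 2 at 0.9767 and 0.9785, so by correlation only WT replicate 3 was nearer than both. The bacterial transcripts spiked in before labelling had medians of 7.59 and 7.01 on the WT and TOC1-ox arrays numbered 3, against 2.81 to 4.84 on the others. The green seedling markers were high on every array, with 2 of 16 listed measured, RCA (Rubisco activase) and PSBW (a photosystem II subunit), whose WT means were 13.71 and 12.41. Results that rest on an array numbered 3 are given with and without it.

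RD29B fell in TOC1-ox seedlings and was the only 1 of the 9 probe sets to pass the test. COR15A, COR15B and RAB18 had differences of -4.53, -3.80 and -3.13 on the log2 scale and no overlap between the groups, but did not pass. RD29A, COR47, LTI30 and KIN1/KIN2 had smaller differences, of -0.33 to -1.14, and overlapping groups. RD20 was the single gene with a higher mean in TOC1-ox, by log2 1.19, and its groups overlapped too.

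Against the whole array, the count of 1 call stands beside a background of 0.703% of probe sets called lower. At 4 of the 9 probe sets all TOC1-ox values lay below all WT values, where 10.8% of all probe sets did so. The same 4 were at least 4-fold lower, as were 0.695% of all probe sets. In size, the difference of COR15A was the 10th lowest of all 22746, that of COR15B the 24th and that of RAB18 the 49th. RD29B, whose TOC1-ox mean lay under 4, is not ranked. At no member did all TOC1-ox values lie above all WT values, against 9.27% of all probe sets. The median log2 difference of the 9 was -1.14, beside -0.02 for all probe sets tested. Since the genes were picked with earlier results of these data known, these counts, ranks and medians are a description and carry no test.

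**Figure D1:**
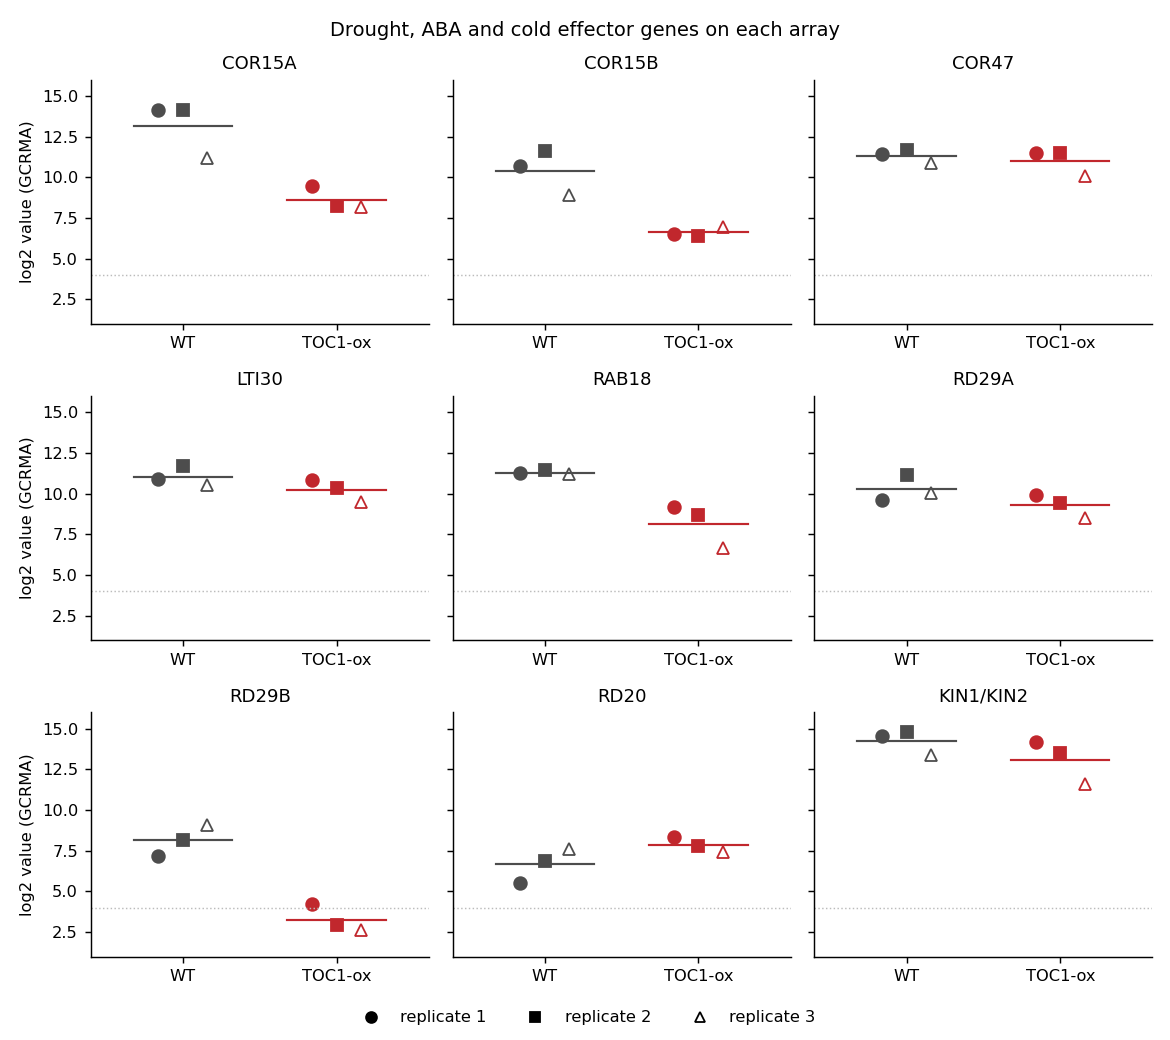
Log2 value (GCRMA) of each gene on each array, WT in grey and TOC1-ox in red, with 1 symbol shape per replicate number, open triangles for replicate 3, group means as lines and a dotted line at 4. The groups do not overlap for COR15A, COR15B, RAB18 and RD29B, and TOC1-ox replicate 3 is the lowest of all 6 arrays at 7 of the 9.

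COR15A and COR15B encode small chloroplast proteins that protect membranes during freezing, and they are next to each other on chromosome 2. COR15A had 14.11, 14.13 and 11.22 in WT replicates 1 to 3 and 9.45, 8.26 and 8.17 in TOC1-ox. WT replicates 1 and 2 nearly coincided close to the top of the scale, while WT replicate 3 lay 2.90 below their mean. The lowest WT value was still 1.77 above the highest TOC1-ox value. The difference was -4.53 ± 0.94 (95% interval -6.94 to -2.12), a 23.1-fold lower level in TOC1-ox, and did not pass (limma, adjusted p = 0.1).

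COR15B showed the same order of WT arrays. Its values were 10.72, 11.60 and 8.92 in WT and 6.50, 6.39 and 6.96 in TOC1-ox. The 3 TOC1-ox arrays lay within 0.57 of each other, and here replicate 3 was the highest of them, the single exception among the 9 probe sets. The difference was -3.80 ± 0.72 (95% interval -5.65 to -1.95), or 13.9-fold lower (limma, adjusted p = 0.0826). Without WT replicate 3 it was -4.54 and passed (limma, adjusted p = 0.0488), in a fit that called 0.444% of all probe sets lower; COR15A, at -5.50, did not pass there (0.0553). Among the arrays numbered 1 and 2 only, both passed (limma, adjusted p = 0.0403 for COR15A and 0.0332 for COR15B), where 4.53% of all probe sets were called lower.

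The log2 ratio of COR15A to COR15B within an array tells whether the neighbours changed equally. Its mean was 2.74 (SD 0.58, n = 3) for the WT arrays and 2.01 (SD 0.88, n = 3) for the TOC1-ox arrays, with overlapping values. The ratio differed by -0.73 between the groups (exact two-sided permutation test, p = 0.3, 0.3 adjusted over the 2 pairs of neighbours tested), where 3 against 3 arrays allow no p under 0.1. Beside COR15B on its other side, AT2G42520 differed by -0.16 with overlapping groups (limma, adjusted p = 0.938).

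RD29A and RD29B, also named LTI78 and LTI65, are neighbours on chromosome 5 that respond to desiccation. RD29A is induced by cold, drought, salt and ABA, and RD29B mostly by ABA. RD29B had 7.16, 8.17 and 9.08 in WT and 4.21, 2.93 and 2.603 in TOC1-ox. The gap between the groups, 2.95 from the lowest WT to the highest TOC1-ox value, was wider than the range of either group. The difference was -4.89 ± 0.66 (95% interval -6.59 to -3.19; limma, adjusted p = 0.0461). The TOC1-ox mean of 3.25 lay under 4, so the size of the fall is not well defined.

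The call of RD29B was close to the threshold and depended on the arrays. Without TOC1-ox replicate 3 it passed with a difference of -4.57 (limma, adjusted p = 0.0294), when 5.94% of all probe sets were called lower. Without any other single array it did not pass, with adjusted p of 0.101 to 0.169 by limma. It also missed the threshold among the arrays numbered 1 and 2 only, with a difference of -4.10 (0.0813), and when a batch term set the arrays numbered 3 apart (0.0646). Since the groups did not overlap, leaving arrays out could not turn the sign, which was negative in all 15 alternatives in which it was tested. The variance trend, robust prior, replicate block and batch term left the difference at -4.89 by design.

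RD29A had a smaller difference, which did not pass. Its values were 9.60, 11.13 and 10.06 in WT and 9.92, 9.46 and 8.48 in TOC1-ox. TOC1-ox replicate 1 lay above WT replicate 1, so the groups overlapped. The difference was -0.98 ± 0.55 (95% interval -2.40 to 0.45, adjusted p = 0.491 by limma). With 1 array left out it ran from -1.31 (without WT replicate 1) to -0.54 (without WT replicate 2). It was -0.57 without TOC1-ox replicate 3, -1.08 without WT replicate 3 and -0.68 among the arrays numbered 1 and 2 only.

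Within an array, the log2 ratio of RD29A to RD29B separated the genotypes. It was 2.44, 2.96 and 0.97 in WT and 5.71, 6.53 and 5.88 in TOC1-ox, with no overlap. The ratio was 3.91 higher in TOC1-ox (exact two-sided permutation test, p = 0.1, the smallest that 3 against 3 arrays allow; 0.2 adjusted over the 2 pairs). The test could thus not reach 0.05 whatever the values. Since RD29B lay near the bottom of the scale in TOC1-ox, the size of this shift is not well defined either.

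The 3 dehydrins, hydrophilic proteins that accumulate in drying or chilled tissue, had differences from -3.13 to -0.33. RAB18, the dehydrin known as an ABA marker, had 11.26, 11.47 and 11.18 in WT and 9.15, 8.69 and 6.66 in TOC1-ox. WT was tight, within 0.28, and TOC1-ox replicate 3 lay 2.26 below the mean of replicates 1 and 2. The difference was -3.13 ± 0.69 (95% interval -4.90 to -1.37), 8.77-fold lower, and did not pass (limma, adjusted p = 0.113).

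Whether RAB18 passed depended on the setting, and not only on TOC1-ox replicate 3. Without that array the difference was smaller, -2.38, and passed (limma, adjusted p = 0.00648). That fit called 5.94% of all probe sets lower. RAB18 also passed among the arrays numbered 1 and 2 only (limma, adjusted p = 0.037, difference -2.44). With all arrays kept, it passed by limma with a minimum mean of 4 or 6 and with array weights (adjusted p = 0.0335, 0.0309 and 0.0111). The range over all alternatives was 0.00648 to 0.312.

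COR47, an acidic dehydrin also called RD17, had 11.44, 11.71 and 10.86 in WT and 11.47, 11.50 and 10.06 in TOC1-ox. Replicates 1 and 2 of both genotypes lay between 11.44 and 11.71, and replicate 3 was the lowest array of each group. The difference was -0.33 ± 0.48 (95% interval -1.57 to 0.90; limma, adjusted p = 0.863). Without TOC1-ox replicate 3 its sign turned, to 0.14. The difference was -0.57 without WT replicate 3 and -0.09 among the arrays numbered 1 and 2 only.

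LTI30, a cold-induced dehydrin also called XERO2, had 10.89, 11.72 and 10.52 in WT and 10.87, 10.33 and 9.50 in TOC1-ox. TOC1-ox replicate 1 lay within the WT values and the other TOC1-ox arrays below them. The difference was -0.81 ± 0.48 (95% interval -2.04 to 0.42, adjusted p = 0.512 by limma). A 95% interval of this width leaves room for a 4-fold lower level of LTI30 as well as for a slightly higher one. With 1 array left out, the difference ran from -1.13 (without TOC1-ox replicate 1) to -0.44 (without TOC1-ox replicate 3). It was -0.47 without WT replicate 2, -1.07 without WT replicate 3 and -0.70 among the arrays numbered 1 and 2 only.

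KIN1 and KIN2 are neighbours on chromosome 5 that encode small hydrophilic proteins induced by cold and ABA. Their shared probe set had 14.55, 14.80 and 13.36 in WT and 14.21, 13.48 and 11.60 in TOC1-ox. Both arrays numbered 3 were the lowest of their group, by 1.31 and 2.24 from the mean of replicates 1 and 2. The difference was -1.14 ± 0.80 (95% interval -3.19 to 0.91, adjusted p = 0.602 by limma). It was -0.39 without TOC1-ox replicate 3, -1.58 without WT replicate 3 and -0.83 among the arrays numbered 1 and 2 only. The next genes outward, AT5G15950 and AT5G15980, differed by 0.33 and 0.41 with overlapping groups (limma, adjusted p = 0.785 and 0.695).

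RD20, a calcium-binding caleosin with peroxygenase activity that is induced by drought and ABA, had its higher mean in TOC1-ox. Its values were 5.52, 6.88 and 7.58 in WT and 8.33, 7.79 and 7.43 in TOC1-ox. Only WT replicate 3 reached into the TOC1-ox range, by 0.15. The difference was 1.19 ± 0.59 (95% interval -0.32 to 2.71), a 2.29-fold higher mean, and did not pass (limma, adjusted p = 0.415). It was positive in all 16 alternatives, from 0.62 without WT replicate 1 to 1.86 among the arrays numbered 1 and 2 only. The filters, variance trend, robust prior, replicate block and batch term left it at 1.19 by design, so they do not test its sign. Without WT replicate 3 the difference was 1.65 (limma, adjusted p = 0.226). The groups then did not overlap, which follows from leaving out the only WT array in the overlap.

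**Figure D2:**
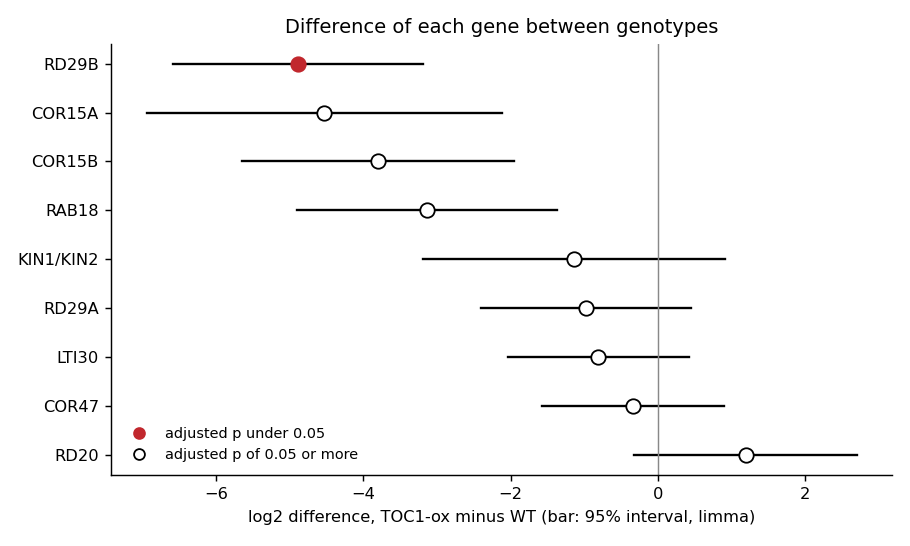
Log2 difference, TOC1-ox minus WT, of each gene (point) with its 95% interval from limma (bar), filled in red where the adjusted p was under 0.05. RD29B, COR15A, COR15B and RAB18 lie at -3.13 or lower with intervals below 0, and the intervals of the other 5 cross 0.

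The 9 probe sets varied widely among arrays of the same genotype. The median SD over the WT arrays was 0.78 for the members and 0.15 for all probe sets, and over the TOC1-ox arrays 0.73 and 0.17. In WT, the SD of COR15A exceeded that of 99.9% of all probe sets and the SD of COR15B that of 99.7%. RAB18 was the exception, with a WT SD of 0.15 that lay above 48.3% of all probe sets. In TOC1-ox, RAB18 and KIN1/KIN2 were the most variable, with SDs above those of 98.9% and 99.0% of all probe sets.

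WT replicate 3 did not shift the members one way. It was the lowest WT array at 6 of the 9, as at 54.8% of all probe sets, and the highest at RD29B and RD20, 2 of the 9 against 26.3%. Relative to the mean of WT replicates 1 and 2, it lay 1.42 higher for RD29B and 1.38 higher for RD20. It lay lower by 2.90 for COR15A, 2.23 for COR15B and 1.31 for KIN1/KIN2. WT replicate 2 was the highest WT array at the 7 others, against 33% of all probe sets.

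TOC1-ox replicate 3 was the lowest TOC1-ox array at 8 of the 9, against 35.5% of all probe sets. The members' median deviation from the WT mean was -0.34, -0.81 and -2.64 on TOC1-ox replicates 1 to 3. The part of whatever set the arrays numbered 3 apart in these values was not tested.

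Profiles of the members were compared after centring each on its mean over the 6 arrays. COR47, LTI30, RD29A and KIN1/KIN2 lay within a mean distance of 0.22 to 0.53 log2 units per array of each other, with LTI30 and RD29A the closest pair of all. COR15A and COR15B were 0.58 apart. RAB18 and RD29B were 0.90 apart, and RAB18 lay 1.18 or more from both COR15 genes and from COR47. RD20 and RD29B, at 3.04, were the least alike. These distances describe 6 arrays in 2 groups and carry no test.

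Among the 13509 other single-gene probe sets, the 3 nearest to each member were found by the same distance. Since they were picked for likeness over the same arrays, their differences and their order of arrays follow from the choice and are given as a description, with no test. The nearest to RD29B was AT3G17520, of the late embryogenesis abundant family, at 0.18 log2 units per array, where the median candidate lay at 2.44. It had 6.48, 7.82 and 8.33 in WT and 3.48, 2.596 and 2.21 in TOC1-ox, so that WT replicate 3 was highest and TOC1-ox replicate 3 lowest, as for RD29B. Its difference was -4.78. AT1G04560, at 0.35, and AT3G15670, at 0.44, came next, with differences of -4.88 and -4.37. All 3 of these profiles had TOC1-ox means under 4, so the sizes of their falls are not well defined.

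Around COR15A the nearest profiles were AT2G28490 (a seed cupin) at 0.40, the late embryogenesis abundant gene M17 at 0.46, and DELTA-VPE (a protease of the seed coat) at 0.52. AT2G28490, M17 and DELTA-VPE differed by -4.58, -3.79 and -4.04. All 3 had their lowest WT value on replicate 3, as COR15A did. For COR15B the nearest were AT5G03120 at 0.29, M17 at 0.30 and AT5G10120 at 0.38, with differences of -3.26, -3.79 and -3.12. The TOC1-ox means of AT2G28490, M17, DELTA-VPE and AT5G10120 lay under 4, so the sizes of their falls are not well defined.

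RAB18 was nearest to AT5G64110 at 0.29, LEA18 at 0.33 and COR27 at 0.36. LEA18 had 8.36, 8.50 and 9.02 in WT and 6.49, 5.78 and 2.85 in TOC1-ox, with replicate 3 far below the others as in RAB18. COR27, which is induced by cold and feeds back on the clock, was more even in TOC1-ox, at 7.19, 7.17 and 6.40. RD20 was nearest to AT2G19650, AT5G54020 and AT2G41800, at 0.23 to 0.25, all with higher values on the TOC1-ox arrays.

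**Figure D3:**
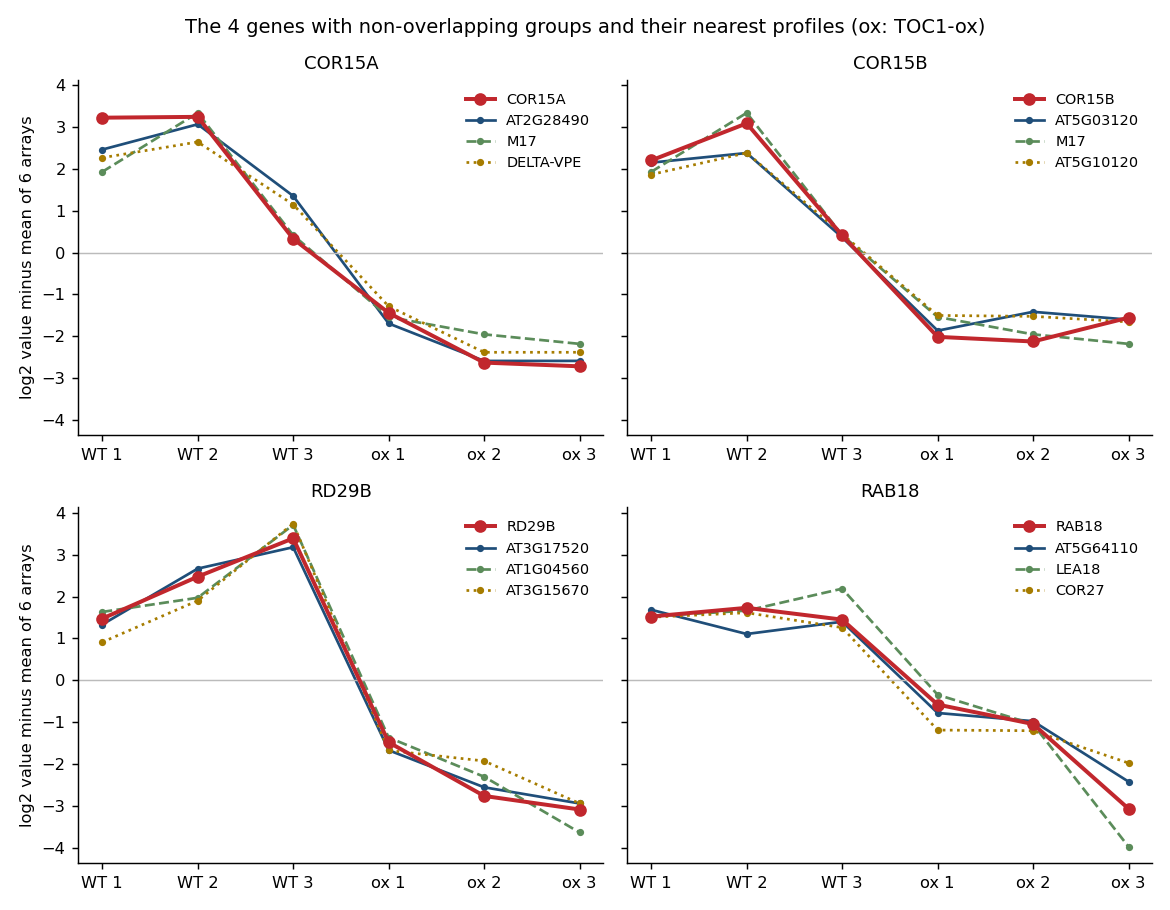
Log2 value minus the mean of the 6 arrays for COR15A, COR15B, RD29B and RAB18 (thick red) and the 3 single-gene probe sets nearest to each (thin lines), by array; lines join arrays only to guide the eye. RD29B peaks on WT replicate 3, COR15A and COR15B dip there, and RAB18 is lowest on TOC1-ox replicate 3.

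The other 4 profiles had close neighbours with small differences. Nearest to COR47 were AT2G26470, GRXC1 and AT1G64330, at 0.08 to 0.14. LTI30 was nearest to AT2G34930, AT3G18500 and AT3G29760, RD29A to AT3G46700, AT1G72140 and AT1G05340, and KIN1/KIN2 to AT3G05900, AT1G16850 and CML30, a calmodulin-like gene. The differences of these 12 probe sets ran from -1.26 at AT3G05900 to -0.11 at AT1G64330.

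Other genes of the same pathways could be read at few loci. Of 126 further genes in 7 lists, 11 were measured under a name, and a search of RefSeq names for cold, drought and ABA words added 4. Of these 15, 1 was called higher and 1 lower, against 1.08% and 0.703% of all probe sets, and their median difference was -0.01. No ABA receptor, phosphatase or kinase of the lists (27) and no ABA or drought transcription factor (24) was measured under a name, so the steps upstream of RD29B and RAB18 were not analysed here.

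Of 3 cold regulators measured out of 15, the zinc-finger repressor ZAT10, listed as STZ, rose by 3.66 and COR27 fell by 2.92 (limma, adjusted p = 0.0485 and 0.0213). The WT mean of ZAT10, 2.82, lay under 4, so the size of its rise is not well defined. COR28 (AT4G33980), a relative of COR27, differed by -2.06 with no overlap and did not pass (limma, adjusted p = 0.064). Among 4 other dehydrins of 7 listed, none was called. LEA (AT2G21490) had 3.62, 3.75 and 5.75 in WT and 2.98, 2.55 and 2.98 in TOC1-ox, mostly under 4, and AT4G38410 differed by 0.93 with no overlap (limma, adjusted p = 0.331 and 0.254). RD2 and BGLU33, a beta-glucosidase, were the only genes measured of the other effectors (28 listed) and of ABA metabolism and transport (19 listed). They differed by 0.26 and 0.06 (limma, adjusted p = 0.751 and 0.975). The 2 caleosins measured beside RD20, of 6 listed, AT1G23240 and AT1G23250, lay at WT means of 2.01 and 2.17, near the bottom of the scale, and differed by -0.01 and -0.05 (0.969 and 0.818).

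Some seed markers were also lower in TOC1-ox. RAB18 and RD29B transcripts are also known from seeds. Of 19 seed markers, 4 were measured under a name and 3 were called lower: AT2G25890 (an oleosin family gene), AT2G28490 and DELTA-VPE. These 3 had been put on the list with their falls known, so they are no independent evidence. Their count can thus not be weighed against the 0.703% of all probe sets called lower. The sum of the 4 on the linear scale was 240 to 456 on the WT arrays and 21.9 to 32.6 on the TOC1-ox arrays. Its fall follows from the choice of AT2G25890, AT2G28490 and DELTA-VPE. Their TOC1-ox means lay under 4, so the size of the fall is not well defined. OLEO3, a seed oleosin, lay under 4 on every array, at 3.11 to 3.60 in WT and 3.07 to 3.11 in TOC1-ox, and was not called (limma, adjusted p = 0.465). The part of seed material in the members' differences was not tested.

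Of 12 root markers, 2 were measured, the root hair expansins EXPA7 and EXPA18. They differed by 0.84 and 0.94 with higher values on all TOC1-ox arrays, and neither was called (limma, adjusted p = 0.129 and 0.266). The gap between the groups was 0.36 for EXPA7 and only 0.07 for EXPA18. Of all probe sets, 9.27% had higher values on all TOC1-ox arrays. The sum of both on the linear scale was 173 to 289 in WT and 319 to 556 in TOC1-ox. The part of a different share of root in the members' differences was not tested.

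**Figure D4:**
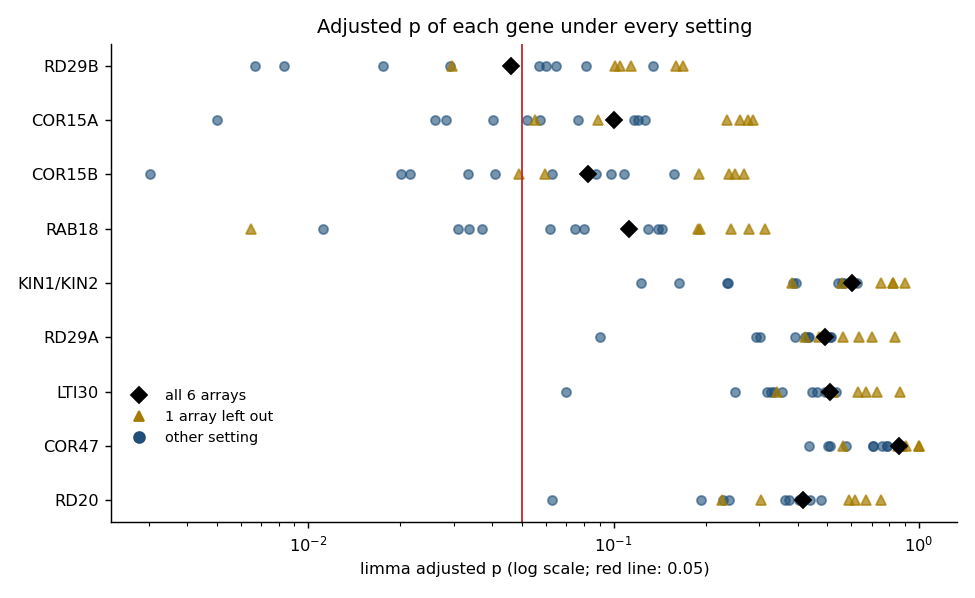
Adjusted p of each gene by limma on a log axis with all 6 arrays (diamonds), with 1 array left out (triangles) and under the other alternatives (circles), with a red line at 0.05. COR15A, COR15B, RAB18 and RD29B have points on both sides of the line, and the other 5 have none below it.

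Across the settings, the same 4 genes made up every call. All 4 passed by limma with a minimum mean log2 value of 4, where 2.29% of the probe sets kept were lower, and with array weights, where 14.5% were. COR15A, COR15B and RAB18 passed with a minimum mean of 6, which left RD29B out (2.23%), and among the arrays numbered 1 and 2 only. A variance trend called COR15B and RD29B (0.901%) and centring of the arrays RD29B (1.11%). None passed after quantile normalization (0.418% of all probe sets lower), with a robust prior (0.426%), with the batch term (1.12%) or with the replicate number as a block (0%). None passed without WT replicate 1 (0.132%), WT replicate 2 (0.0132%), TOC1-ox replicate 1 (0.0484%) or TOC1-ox replicate 2 (0.0396%) either. At an unadjusted p under 0.05 by limma, each of these fits had 4 or 5 of the 9, where 11.3% to 20.3% of all probe sets had such a p.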

How the data were processed

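RNA of whole seedlings was measured on 6 Affymetrix arrays, from 1 µg of total RNA each per the labels' protocols. The authors deposited log2 values in a table of 22810 probe sets. Per the submitters' processing notes, the authors used GCRMA, which corrects background by probe sequence, normalizes by quantiles and summarises probe sets, and limma; the sources used here state no versions and no genome build. Dim probe sets are compressed, and 36.5% of values lay under 4. Precision is limited by the number of arrays.

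Groups and replicate numbers came from sample titles. After 64 control probe sets were left out, the difference between TOC1-ox and WT was estimated with limma 3.58.1 under R 4.3.3 (default prior, no term but group, 5.02 degrees of freedom in all); the procedure was tested on simulated data. P-values measure the spread between these arrays. Genes were named from the platform annotation (1 gene for 13513 probe sets), with symbols updated from RefSeq's TAIR10.1 table, and represented by their brightest probe set. Named genes were all members, called genes of the lists or otherwise their 2 largest differences, and each member's 3 nearest profiles; AT2G42520, AT5G15950, AT5G15980 (chromosome neighbours), COR28, RCA, PSBW, OLEO3 and the root markers were added. Members, lists and tests were chosen with earlier results of these data known, and the search of RefSeq names after the values were seen. The 16 alternatives covered normalization, filters, variance models, array weights, blocks and left-out arrays. Figures were drawn with matplotlib 3.10.9.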

Additional observations from a re-analysis of the deposited data

How the results depend on the processing

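Limma called 1 of the 9 probe sets and 405 of all. Quantile normalization gave 0 and 248, a robust prior 0 and 262, and the batch term for the arrays numbered 3 gave 0 and 568. Keeping probe sets with a mean of 4 or more gave 4 and 852, and of 6 or more 3 (of 8 kept, without RD29B) and 641. A variance trend gave 2 and 564, array weights 4 and 6182, and the arrays numbered 1 and 2 only 3 and 2201. With 1 array left out, the members called numbered 0 to 2 and all calls 8 (without WT replicate 2) to 2955 (without TOC1-ox replicate 3). Every member called under any of these settings was lower in TOC1-ox and was COR15A, COR15B, RAB18 or RD29B; at an unadjusted p under 0.05 limma had 4 members with all arrays (16.4% of all probe sets), after quantile normalization (16.1%) and with the robust prior (15.7%), and 5 with the batch term (20.3%). Of the 16 alternatives (15 for RD29B), COR15A passed in 4, COR15B in 6, and RAB18 and RD29B in 5 each. COR47, LTI30, RD29A, KIN1/KIN2 and RD20 passed in none.

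The replicate block left 0 calls by limma, members and others alike (4317 and 5 at an unadjusted p under 0.05, against 3725 and 4 without it). Deviations of same-numbered arrays correlated at 0.30, -0.01 and 0.08 across probe sets, not all over 0.1, so the numbers were not taken as pairs; the spike-ins set both arrays numbered 3 apart, and not every array correlated best with its own number. Signal near the bottom of the scale limits RD29B in TOC1-ox, ZAT10 in WT, LEA, OLEO3 and the other caleosins. It also limits the falls given for AT2G25890, AT2G28490, DELTA-VPE, M17, AT5G10120, AT3G17520, AT1G04560 and AT3G15670, whose TOC1-ox means lay under 4.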
